A study of Mus musculus with 24 samples.

Results

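The genes described here encode the signaling core of the T cell receptor (TCR): the CD3 chains Cd3d, Cd3e and Cd3g, the zeta chain Cd247, the kinases Lck and Zap70, the adaptors Lat and Lcp2, and the adhesion receptor Cd2. These 9 genes were chosen by name for their place in the pathway, out of 35817 mouse genes to which the transcript counts were summed. RNA sequencing had been done on sorted splenic T cells, in 24 libraries that fall into 8 groups of 3. The groups cross the genotype of the T cells (Cat-Tg or wild-type, WT), the subset (CD8+ or CD4+) and the time (before transplant, pre-tx, or day 7 after it, post-tx). Cat-Tg mice are heterozygous for a human β-catenin transgene that lacks the N-terminus of the protein and is driven by a T cell vector with the Lck proximal promoter. The transgene was made in FVB embryos and bred onto C57BL/6, the strain of the WT donors. Pre-tx cells were sorted from fresh spleens of 3 mice per genotype. For the post-tx groups, Cat-Tg or WT CD4+ and CD8+ T cells were mixed 1:1 and given with T cell-depleted WT bone marrow to lethally irradiated BALB/c mice, and donor T cells (positive for H-2Kb) were sorted from the spleens of 3 recipients per genotype. Every post-tx group thus shares the irradiation, the WT marrow and the mismatched host.

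T cells recognize antigen with the αβ TCR, which has no signaling domain of its own. The CD3 chains and the zeta chain carry immunoreceptor tyrosine-based activation motifs (ITAMs), which Lck phosphorylates once the receptor is engaged. Zap70 then docks on the phosphorylated motifs and phosphorylates Lat, a membrane scaffold, and Lcp2 (SLP-76), a cytosolic adaptor, and these nucleate the complex that opens calcium and Ras signaling. Cd2 binds CD48 on the opposing cell and strengthens contact. Mature T cells carry the receptor complex at the surface, so that transcripts of the CD3 chains also serve as markers of T cell identity.

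The CD3 genes lie in 1 cluster, and Lck has a pair of promoters, so the sequences upstream of these starts are given before the levels. In GRCm38 (GENCODE M21), Cd3g spans chr9:44969572-44980431 on the minus strand, Cd3d chr9:44981786-44987339 on the plus strand and Cd3e chr9:44998740-45009627 on the minus strand. The starts of Cd3g and Cd3d point away from each other and lie 1355 bases apart, and the start of Cd3e lies 27825 bases beyond that of Cd3d. Of the other members, Lck spans chr4:129548344-129573641 on the minus strand, Cd247 chr1:165788681-165877277 on the plus strand, Zap70 chr1:36761798-36782818 on the plus strand, Lat chr7:126363824-126369570 on the minus strand, Lcp2 chr11:34046920-34092295 on the plus strand and Cd2 chr3:101275899-101287939 on the minus strand. The RefSeq promoter table (GRCm38.p6) held 8 of the 9 members, all but Cd2. The 250 bases upstream of each start are printed 5′ to 3′ on the strand of the gene. Capitals mark letters searched on both strands: CAGGAAG (ETS factors, present in 10.8% of all 32851 upstream regions of this length), CTTTGA (TCF/LEF factors, through which β-catenin acts, 13.8%) and TGTGGT (RUNX factors, 14.0%).
Cd3g, chr9:44980432-44980681: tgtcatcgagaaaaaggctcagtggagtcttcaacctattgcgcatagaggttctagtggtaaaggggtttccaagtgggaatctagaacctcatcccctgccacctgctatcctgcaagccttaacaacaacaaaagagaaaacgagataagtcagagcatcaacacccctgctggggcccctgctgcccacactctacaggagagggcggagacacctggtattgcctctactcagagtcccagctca
Cd3d, chr9:44981536-44981785: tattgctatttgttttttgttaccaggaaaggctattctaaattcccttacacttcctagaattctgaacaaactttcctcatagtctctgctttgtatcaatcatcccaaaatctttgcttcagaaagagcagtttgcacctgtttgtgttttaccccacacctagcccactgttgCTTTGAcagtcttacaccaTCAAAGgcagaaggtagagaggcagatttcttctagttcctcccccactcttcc
Cd3e, chr9:45009612-45009861: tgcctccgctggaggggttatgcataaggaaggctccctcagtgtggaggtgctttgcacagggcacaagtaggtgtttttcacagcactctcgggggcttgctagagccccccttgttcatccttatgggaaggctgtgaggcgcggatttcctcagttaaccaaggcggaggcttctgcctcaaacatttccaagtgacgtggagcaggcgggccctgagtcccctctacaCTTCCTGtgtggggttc
Lck distal, chr4:129573642-129573891: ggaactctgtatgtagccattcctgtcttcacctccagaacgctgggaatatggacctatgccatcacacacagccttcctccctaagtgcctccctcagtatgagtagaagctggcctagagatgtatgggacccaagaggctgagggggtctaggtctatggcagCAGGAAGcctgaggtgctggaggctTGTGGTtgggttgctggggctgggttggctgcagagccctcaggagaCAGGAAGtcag
Lck proximal, chr4:129558373-129558622: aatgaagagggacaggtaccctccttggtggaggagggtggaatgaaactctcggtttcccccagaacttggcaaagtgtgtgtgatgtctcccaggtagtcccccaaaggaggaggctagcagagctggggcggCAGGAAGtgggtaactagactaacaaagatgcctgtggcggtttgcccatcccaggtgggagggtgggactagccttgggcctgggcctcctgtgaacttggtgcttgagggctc
The window of Cd3d held 2 matches to the TCF/LEF letters, that of Cd3e 1 ETS match, that of Lck distal 2 ETS matches and 1 RUNX match, and that of Lck proximal 1 ETS match. No match to these letters lay in the window of Cd3g. A match says only that the letters are present.

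The libraries held between 11135713 and 50519825 estimated counts (median 27062440), so that 3 counts, the floor used here, came to between 0.0594 and 0.269 CPM (counts scaled to library size). The 6 WT pre-tx libraries went against their labels in part. The WT CD8 pre-tx libraries held Cd4 at 74.9, 78.8 and 94.6 CPM beside Cd8a at 132, 78.7 and 133 CPM, and the WT CD4 pre-tx libraries held Cd8a at 138, 163 and 144 CPM beside Cd4 at 73, 148 and 77.8 CPM. In every other group Cd4 stayed at or below 4.5 CPM in CD8 libraries and Cd8a at or below 10.5 CPM in CD4 libraries. The same 6 libraries were rich in B cell transcripts: the summed level of 14 B cell markers was 9971 to 13832 CPM in WT CD8 pre-tx and 15157 to 16519 CPM in WT CD4 pre-tx, against 966 to 4021 CPM in Cat-Tg pre-tx and 479 to 3159.8 CPM in the post-tx libraries. Summed over 9 T cell markers that are not members, the order was reversed, with 599 to 704 CPM in WT CD8 pre-tx and 906 to 1119.7 CPM in WT CD4 pre-tx against 1171 CPM or more in all other libraries. Every comparison with the WT pre-tx libraries is therefore also given on a scale that holds those 9 T cell markers level. The markers did not all change alike, so T cell content need not be level on that scale. In bulk samples such as these, fewer T cells and less RNA per T cell cannot be told apart. Counts assigned to mouse Ctnnb1, the β-catenin gene, cannot be taken as a measure of the human transgene. They overlapped between genotypes in each of the 4 pairs of groups, at 7.79 to 166 CPM. Whether reads of the transgene were among them was not tested. The methods state that the same WT data also appear in other publications of the lab, from a shared experiment. The sample titles name no batch, so a difference in handling that went with genotype could not be told apart from it. Replicates were separate mice or recipients according to the methods, and both subsets were sorted from each of them, but the labels do not say which CD8 and CD4 libraries came from 1 mouse.

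The summed level of the members was lowest in the WT pre-tx libraries. In TPM (transcripts scaled by length and library), which allows genes to be compared, the 9 members summed to 6453 ± 834 (SD, n = 3) in WT CD4 post-tx, 6213 ± 149 in Cat-Tg CD8 post-tx, 5151 ± 85.2 in Cat-Tg CD4 pre-tx, 5028 ± 162 in Cat-Tg CD8 pre-tx, 4792 ± 543 in WT CD8 post-tx, 4436 ± 306 in Cat-Tg CD4 post-tx, 1909 ± 279.7 in WT CD4 pre-tx and 1799 ± 141 in WT CD8 pre-tx. Neighbours in this order lay within their spread, except that Cat-Tg CD8 post-tx (6124 to 6385 TPM) stood above Cat-Tg CD4 pre-tx (5089.7 to 5248 TPM), and Cat-Tg CD4 post-tx (4167 to 4769 TPM) above WT CD4 pre-tx (1716 to 2230.2 TPM), with no overlap. Lck, Cd3g and Cd2 had the highest mean levels in every group but WT CD4 pre-tx, where Cd3g (176 TPM) lay below Cd3d (208 TPM) and Cd3e (206 TPM), and Lcp2 had the lowest in all groups. Lck ranged over group means of 516 to 1657 TPM, Cd3g of 176 to 1486 TPM and Cd2 of 306 to 1056 TPM, while Lcp2 ranged from 26.7 to 199 TPM. As a share of the members' summed TPM, Lck took group means of 15.6 to 28.5%, Cd3g 9.09 to 28.9%, Cd2 14.7 to 21.3%, Cd3d 8.83 to 16.5%, Cd3e 5.34 to 11.3%, Cd247 5.79 to 8.09%, Lat 4.83 to 13.6%, Zap70 2.43 to 8.08% and Lcp2 0.553 to 4.43%.

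**Figure D1:**
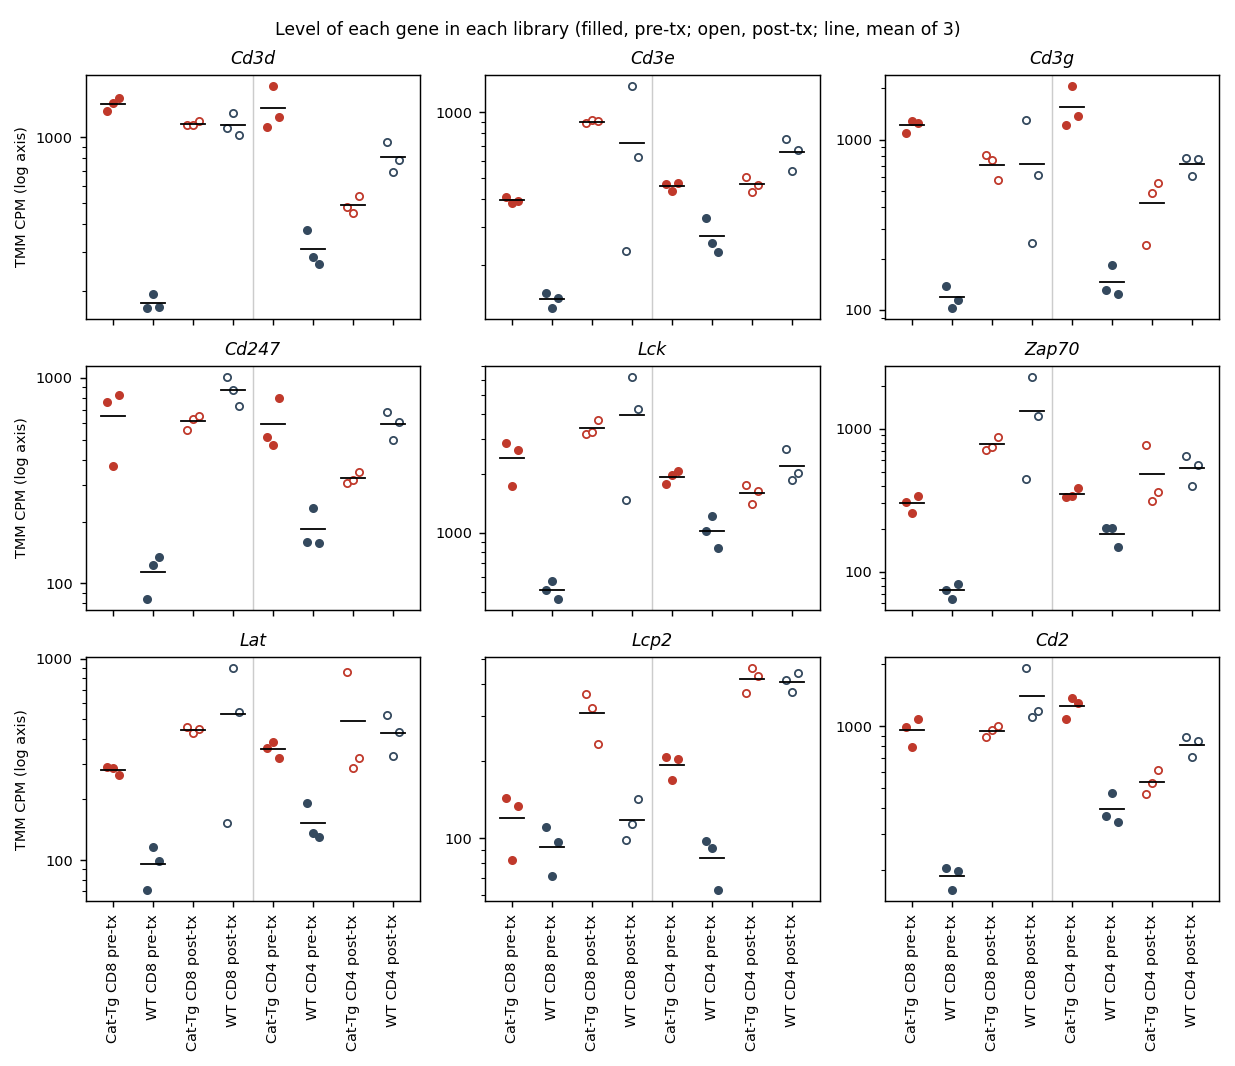
CPM (TMM-scaled within the subset, log axis) of each of the 9 genes in every library, by group; filled points are pre-tx, open points post-tx and the line is the mean of 3. The mean of the filled WT points is the lowest of its subset for all 9 genes, and the WT CD8 post-tx points are the most spread out for Cd3e, Lck, Zap70 and Lat (443 to 2299 CPM for Zap70).

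Before transplant, Cat-Tg CD8+ cells held higher levels of most of the receptor complex than the libraries labelled WT CD8+. The comparison sets Cat-Tg beside WT before transplant, and the 12 CD8 libraries were fitted together. The WT libraries also held mixed coreceptor transcripts and many B cell transcripts, so genotype and cell make-up cannot be told apart here. Cd3d, a CD3 chain, stood at 1320.4, 1425 and 1514 CPM in Cat-Tg against 167, 193 and 168 CPM in WT, and was 8.06-fold higher (log2 fold change 3.01 ± 0.299 SE, adjusted p = 0.000164, edgeR quasi-likelihood test). Cd3g, its partner across the shared upstream region, stood at 1097, 1288 and 1242 CPM against 138, 103 and 114 CPM, a 10.2-fold difference (3.35 ± 0.488, adjusted p = 0.000712). The Cat-Tg and WT values of both genes lay far apart in every library. Cd247, the zeta chain, was at 762, 373 and 824 CPM against 83.9, 123 and 134 CPM (2.52 ± 0.369, adjusted p = 0.000707), so that 1 Cat-Tg library was well below the other two. Lck, which starts the cascade, was at 2875, 1727 and 2626 CPM against 512, 571 and 462 CPM (2.23 ± 0.43, adjusted p = 0.00476). Zap70, the kinase that docks on the ITAMs, was at 309, 259 and 339 CPM against 74.6, 64.4 and 82.6 CPM (2.03 ± 0.456, adjusted p = 0.0116). Cd2 was at 998, 799 and 1086 CPM against 205, 160.2 and 198 CPM (2.36 ± 0.327, adjusted p = 0.000561).

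The remaining members of this comparison did not pass the edgeR test. Cd3e stood at 410.4, 385 and 395 CPM against 150.0, 128 and 141 CPM (1.51 ± 0.456, adjusted p = 0.0511), and the scaffold Lat at 289, 287 and 266 CPM against 70.7, 116 and 99 CPM (1.56 ± 0.474, adjusted p = 0.0526). For both genes the groups did not overlap although the adjusted p lay just past 0.05, and other settings called them. Cd3e passed with limma-voom (adjusted p = 0.0413), DESeq2 (0.0241), no filter on low counts (0.0311), a minimum of 10 counts (0.0477) and a fit of only these groups (0.00109). Lat passed under the same settings (0.0447, 0.023, 0.0266, 0.0496 and 0.00279), with length-scaled TPM (0.0475) and with the correction for GC content and gene length (0.00368). Neither passed on the scale of the T cell markers (0.955 and 0.949). The adaptor Lcp2 overlapped between the groups, at 144, 82.7 and 134 CPM against 111, 71.1 and 96.8 CPM (0.37 ± 0.355, adjusted p = 0.6). In all, 6 of the 9 members were higher and none lower, where 8.98% of the 15960 genes tested were called in either direction and 4.50% were higher. Groups did not overlap for 8 members, against 33.0% of all genes. The median log2 fold change was 2.23 for the members and -0.07 for all genes tested. The wider pathway list, 70 genes measured, had 12 higher and 6 lower, among them the TCR chains Trbc2 (2808 against 358 CPM), Trbc1 (1686 against 225 CPM) and Trac (444 against 132 CPM), the coreceptor chains Cd8b1 (log2 fold change 3.05) and Cd8a (2.59), and on the lower side Cd4 (-5.61) and the calcineurin subunit Ppp3ca (-2.54).

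All 14 B cell markers were lower in these Cat-Tg libraries (median log2 fold change -4.83), and 3 of the 9 other T cell markers were higher. Those 9 moved unevenly, with mean Trat1 at 20.8 CPM in Cat-Tg against 18.1 CPM in WT and mean Themis at 88.6 against 15.6 CPM. On the scale of those T cell markers, 3 members were called: Cd3d (1.52, adjusted p = 0.00483) and Cd3g (1.9, adjusted p = 0.0157) stayed higher, and Lcp2 was lower (-1.13, adjusted p = 0.0165). Leaving out WT CD8 pre-tx replicate 1 or 2 took Zap70 past the threshold, with adjusted p-values of 0.0513 and 0.0503.

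In CD4+ cells before transplant, all 9 members were higher in Cat-Tg than in the libraries labelled WT, and for none did the groups overlap. The call rate was 20.4% of the 17227 genes tested in either direction, 13.3% higher, and 36.6% of genes did not overlap. Cd3g was at 1223, 2071 and 1378 CPM against 131, 183 and 124 CPM, 10.7-fold higher (3.42 ± 0.327, adjusted p = 1.1e-05). Cd3d was at 1114, 1717 and 1231 CPM against 378, 283 and 263 CPM, 4.4-fold higher (2.14 ± 0.24, adjusted p = 4.03e-05). As in CD8+ cells, the largest ratio among the members was that of Cd3g. Cd247 (513, 470.1 and 801 CPM against 159, 234 and 157 CPM) was 3.25-fold and Cd2 (1083, 1382 and 1304 CPM against 369.7, 473 and 344 CPM) 3.18-fold higher. Lck was 1.89-fold higher (1770.3, 1964 and 2051 CPM against 1019, 1212 and 834 CPM, adjusted p = 0.00676), and Cd3e 1.7-fold (469, 435 and 476 CPM against 329.8, 253 and 231 CPM, adjusted p = 0.0179). The downstream members were also higher: Lat 2.34-fold (adjusted p = 0.0207), Lcp2 2.3-fold (208, 169 and 203 CPM against 97.5, 91.4 and 62.8 CPM, adjusted p = 0.00134) and Zap70 1.91-fold (adjusted p = 0.0408).

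Of the wider list in CD4+ cells, 28 of 70 genes were higher and 10 lower. The costimulatory receptor Cd28 (174 ± 37.9 against 20.3 ± 7.85 CPM, SD, n = 3) and the TCR adaptor Themis (78.8 ± 7.68 against 9.23 ± 3.23 CPM) were the highest by log2 fold change, with Trbc1 (2.86), Trbc2 (2.1), Trac (1.51) and Cd4 (1.76) also higher, and Cd8a (-4.23) and Cd8b1 (-3.31) were the lowest. The 14 B cell markers were all lower (median -3.18). On the scale of the T cell markers, Cd3g (2.09, adjusted p = 0.000377) and Cd3d (0.79, adjusted p = 0.0269) were still higher, Cd3e was lower (-0.61, adjusted p = 0.0295), and Lck, Zap70, Lat and Lcp2 turned to values between -0.44 and -0.14 that did not pass the test. Some calls did not hold when a library was left out. Zap70 was lost without any 1 of the 6 libraries compared (adjusted p = 0.0716 to 0.288), Cd3e without any but Cat-Tg CD4 pre-tx replicate 2 (0.0526 to 0.257) and Lat without any but Cat-Tg CD4 pre-tx replicate 3 (0.0639 to 0.148). Without Cat-Tg CD4 pre-tx replicate 1 or WT CD4 pre-tx replicate 1 or 3 Lck was lost as well (0.0563 to 0.119), which left 5 members called.

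On day 7 after transplant, no member differed between Cat-Tg and WT donor CD8+ cells in the edgeR test, where 1.67% of genes were called. On the CPM scale Cd3d was almost level, at 1131, 1132 and 1179.9 CPM in Cat-Tg and 1101, 1284 and 1028 CPM in WT (log2 fold change 0.01 ± 0.277, adjusted p = 0.988). In TPM its groups did not overlap, at 781, 736 and 755 in Cat-Tg and 513, 496 and 513 in WT. The mean sum of the members was higher in Cat-Tg in TPM (6213 against 4792) and lower in CPM (9253 against 10807). Levels in this comparison therefore depend on the scale. Lcp2 came nearest to a call, at 366, 321 and 233 CPM in Cat-Tg against 98.7, 114 and 142 CPM in WT. The groups did not overlap and the ratio was 2.59-fold (1.37 ± 0.361, adjusted p = 0.0645), and Lcp2 was the 1 member with an unadjusted p under 0.05 (0.00163). DESeq2 called it (adjusted p = 0.0162) and limma-voom called none. It was also called without Cat-Tg CD8 post-tx replicate 3 (adjusted p = 0.0353) or without WT CD8 post-tx replicate 1 (0.0372) or 2 (0.0416). Cd247 (557, 628 and 656 against 1011, 870.0 and 730.1 CPM) and Cd2 (887, 963 and 1009.8 against 1917, 1116 and 1187 CPM) did not overlap either, with lower values in Cat-Tg and adjusted p-values of 0.444 and 0.338. Together, 3 of 9 members did not overlap, against 25.4% of all genes.

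The WT libraries of this comparison were widely spread. WT CD8 post-tx held Cd3e at 233, 1322 and 625 CPM, Zap70 at 443, 2299 and 1229.8 CPM, Lat at 153, 897 and 546 CPM and Lck at 1475, 6183 and 4255 CPM, while Cd3g ran the other way, at 1299, 246 and 615 CPM. The Cat-Tg libraries lay close together for the same genes: Cd3e at 889, 924 and 907 CPM, Zap70 at 711, 747 and 881 CPM, Lat at 458, 426 and 450.1 CPM, Lck at 3165, 3262 and 3737 CPM and Cd3g at 806, 755 and 576 CPM. Leaving out WT CD8 post-tx replicate 2 moved the log2 fold change of Zap70 from -0.76 to 0.0, and leaving out replicate 1 moved that of Cd3g from -0.02 to 0.85. In the wider list 6 genes were higher and none lower in Cat-Tg. They were the transcription factors of the calcium branch Nfatc2 (129 ± 15.7 against 16.1 ± 0.238 CPM), Nfatc3 (128 ± 38.9 against 35.9 ± 12.6 CPM) and Nfatc1, with Prkcq, Fyb and Dgka. Trac, Trbc1 and Trbc2 did not pass the test (adjusted p = 0.626, 0.283 and 0.246).

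In donor CD4+ cells on day 7, 1 of the 9 members passed the test, Cd247, which is close to the share over all genes. Cd247 was at 308, 318 and 347 CPM in Cat-Tg against 682, 501 and 609 CPM in WT, 1.84-fold lower (-0.88 ± 0.249, adjusted p = 0.0346), where 10.2% of genes were called and 6.47% were lower. Cd3d (480.5, 449.7 and 539.8 against 948, 693 and 789 CPM, adjusted p = 0.0574), Cd2 (471, 531 and 616 against 885, 714 and 851 CPM, adjusted p = 0.0854), Cd3g (239, 487 and 552 against 782, 612 and 768 CPM, adjusted p = 0.124), Cd3e (507, 433 and 465 against 757, 538 and 673 CPM, adjusted p = 0.165) and Lck (1754, 1405 and 1626 against 2659, 1863 and 2004 CPM) were lower in every Cat-Tg library than in any WT library without passing. With Cd247 that made 6 of 9 members whose groups did not overlap, against 28.4% of all genes. Zap70, Lat and Lcp2 overlapped, with log2 fold changes of -0.14, 0.19 and 0.04. The median log2 fold change was -0.49 for the members and -0.19 for all genes.

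In the wider list Trac (407 ± 22.9 against 644 ± 67 CPM), the kinase Fyn (63.7 ± 17.7 against 145 ± 31.2 CPM) and the calcium channel Orai1 (44.3 ± 8.05 against 83.6 ± 18.7 CPM) were lower, and the CD48 receptor Cd244a (50 ± 21.8 against 12.4 ± 3.62 CPM) was higher. The same Cat-Tg libraries held more transcripts of other cells: 12 myeloid markers summed to 2638 to 4038 CPM against 679 to 847 CPM, with 9 of 12 called higher, and 6 red cell markers to 4186 to 26930.2 CPM against 695 to 1320.3 CPM, all called higher. Their part in the result was not tested. The call of Cd247 was lost without any 1 of the 6 libraries compared (adjusted p = 0.0555 to 0.109) and on the scale of the T cell markers, whereas correcting for GC content and gene length gave 6 members lower: Cd3d, Cd3e, Cd247, Lck, Zap70 and Cd2.

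From pre-tx to day 7 in Cat-Tg CD8+ cells, 1 of the 9 members was called, Lcp2, which is close to the share over all genes. Lcp2 went from 144, 82.7 and 134 CPM to 366, 321 and 233 CPM, 2.55-fold higher (1.35 ± 0.361, adjusted p = 0.0228), where 13.9% of genes were called and 8.72% were higher. The other members did not pass, with Zap70 (adjusted p = 0.0529) and Cd3e (0.0833) nearest, at log2 fold changes of 1.37 and 1.19. Lcp2 was lost without Cat-Tg CD8 pre-tx replicate 2 or 3 or post-tx replicate 1 or 2 (adjusted p = 0.0566 to 0.0963), and a fit of only these 6 libraries called 5 members: Cd3e, Zap70, Lat and Lcp2 higher and Cd3g lower. In the wider list 10 genes rose and 5 fell, led by the adaptors Sh2d2a (999 ± 60.4 against 155 ± 51.5 CPM) and Dok2 (875 ± 80.1 against 138 ± 9.91 CPM), with Trdc (-3.11) and Trat1 (-2.72) lowest, and 11 of 14 B cell markers fell.

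In the same interval, 4 members were called lower and 1 higher in Cat-Tg CD4+ cells. Cd3g fell from 1223, 2071 and 1378 CPM to 239, 487 and 552 CPM (3.66-fold, adjusted p = 0.000293), and Cd3d from 1114, 1717 and 1231 CPM to 480.5, 449.7 and 539.8 CPM (2.76-fold, adjusted p = 0.000238). Cd2 fell 2.33-fold (adjusted p = 0.000488) and Cd247 1.83-fold (adjusted p = 0.0106). Lcp2 rose, from 208, 169 and 203 CPM to 367, 459 and 428 CPM (2.16-fold, adjusted p = 0.00125), and Cd3e was level at 469, 435 and 476 CPM before and 507, 433 and 465 CPM after (log2 fold change 0.02, adjusted p = 0.933). These 4 lower and 1 higher members stand beside a call rate of 45.2% over all genes, with 16.2% higher and 28.9% lower. The median log2 fold change was -0.27 for the members and -0.38 for all genes tested, so the members as a set moved much as other genes did. The TCR chains Trbc1 (-2.15), Trbc2 (-1.67) and Trac (-0.64) fell as well, whereas Cd4 rose (1.23). In the same libraries 9 of 12 myeloid markers and 5 of 6 red cell markers were called higher on day 7 and 12 of 14 B cell markers lower, with median log2 fold changes of 1.88, 2.6 and -4.15. Their part in the result was not tested. Scaled to the T cell markers, Cd3g (-1.47), Cd3d (-1.14) and Cd2 (-0.85) were still lower and Lcp2 higher (1.51), Zap70 was gained (0.7, adjusted p = 0.0196) and Cd247 was lost (-0.48, adjusted p = 0.109). Cat-Tg CD4 post-tx replicate 1, the library of lowest depth, held Zap70 at 768 CPM and Lat at 859.6 CPM where replicates 2 and 3 held 313 and 363 CPM and 286 and 322 CPM. Without it the log2 fold change of Zap70 moved from 0.46 to -0.05 and that of Lat from 0.46 to -0.23. Corrected for GC content and gene length, 8 members were called, Lck (-1.15), Zap70 (-0.79) and Lat (-0.53) among the lower ones, and without Cat-Tg CD4 pre-tx replicate 1 or 3 Cd247 was lost (adjusted p = 0.0643 and 0.0633).

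The WT comparisons between times share the pre-tx libraries of the genotype comparisons above, and all 14 B cell markers were lower on day 7 in both subsets. In WT CD8+ cells, 8 members were higher on day 7 than in the pre-tx libraries, all but Lcp2, where 23.6% of genes were called and 13.2% were higher. Zap70 rose most, from 74.6, 64.4 and 82.6 CPM to 443, 2299 and 1229.8 CPM (17.9-fold, adjusted p = 4.11e-05). Cd3d (6.46-fold), Cd3e (5.21-fold), Cd3g (6.08-fold), Cd247 (7.65-fold), Lck (7.71-fold), Lat (5.58-fold) and Cd2 (7.5-fold) followed, and Lcp2 was at 98.7, 114 and 142 CPM after 111, 71.1 and 96.8 CPM before (adjusted p = 0.53). All 8 calls remained on the scale of the T cell markers, with log2 fold changes of 1.33 (Cd3e) to 3.1 (Zap70). Of the 9 markers themselves, 5 were called higher here and 4 were not called, with mean Trat1 at 18.1 CPM before and 7.02 CPM after. This scale therefore cannot be taken to hold T cell content level, either between times or, with the uneven markers given above, between genotypes before transplant. The wider list had 19 genes higher, led by Dok2 (4.15) and Trbc2 (3.56), and 13 lower, led by Cd4 (-4.8) and Tcrg-C4 (-4.17).

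In WT CD4+ cells all 9 members were higher on day 7, against 24.3% of genes called and 14.7% higher. Cd3g went from 131, 183 and 124 CPM to 782, 612 and 768 CPM (4.94-fold, adjusted p = 8.03e-05) and Lcp2 from 97.5, 91.4 and 62.8 CPM to 413, 372 and 438 CPM (4.86-fold, adjusted p = 4.99e-06). The others rose by 2.06-fold (Cd2) to 3.26-fold (Cd247). On the scale of the T cell markers only Cd3g (1.12, adjusted p = 0.0227) and Lcp2 (1.1, adjusted p = 0.00331) passed, and Lck (-0.09) and Cd2 (-0.13) changed sign. Lat was lost without WT CD4 pre-tx replicate 3 (adjusted p = 0.0579). In the wider list 36 genes rose and 6 fell, with Cd28 (3.53) and Cd4 (3.44) highest and Cd8a (-5.24) and Cd8b1 (-3.69) lowest.

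The change of the Cat-Tg to WT difference between the 2 times was tested directly, and it was negative for most members in both subsets. In CD8+ cells 6 of 9 were called, all lower, where 10.7% of genes were called and 4.77% were lower: Cd3g (-3.37 ± 0.648 on the log2 scale, adjusted p = 0.00437), Cd247 (-3.03 ± 0.505), Cd3d (-3.0 ± 0.4), Cd2 (-2.92 ± 0.449), Zap70 (-2.8 ± 0.632) and Lck (-2.45 ± 0.59). Lat (-1.82, adjusted p = 0.0926) and Cd3e (-1.19, adjusted p = 0.26) did not pass, and Lcp2 was positive (1.0, adjusted p = 0.23). In CD4+ cells 7 of 9 were called, all lower, where 21.4% of genes were called and 14.1% were lower. They ran from Cd3g (-4.17 ± 0.438) and Cd3d (-2.86 ± 0.332) over Cd247 (-2.58 ± 0.355) and Cd2 (-2.27 ± 0.302) to Lck (-1.36 ± 0.305), Cd3e (-1.25 ± 0.3) and Lcp2 (-1.17 ± 0.312). The WT pre-tx libraries enter every one of these values, and the limit of the T cell marker scale stated above holds for them too. On the scale of the T cell markers, Cd3d (-2.08), Cd3g (-2.71), Cd247 (-2.04) and Cd2 (-2.08) were still lower in CD8+ cells with Lcp2 higher (1.94, adjusted p = 0.0102), and in CD4+ cells Cd3d (-1.34), Cd3g (-2.6) and Cd247 (-1.01) were still lower. In the CD8 test, Lck was lost without Cat-Tg CD8 pre-tx replicate 1 (adjusted p = 0.0539) or 3 (0.0522), and Cd3e (0.0184) and Lat (0.00374) were gained without WT CD8 post-tx replicate 1. In the CD4 test, Cd3e, Lck and Lcp2 were lost, leaving 4, without Cat-Tg CD4 pre-tx replicate 1 or WT CD4 pre-tx replicate 1 or 3, and Zap70 (-1.58, adjusted p = 0.00369) and Lat (-1.73, adjusted p = 0.00258) were gained without Cat-Tg CD4 post-tx replicate 1.

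**Figure D2:**
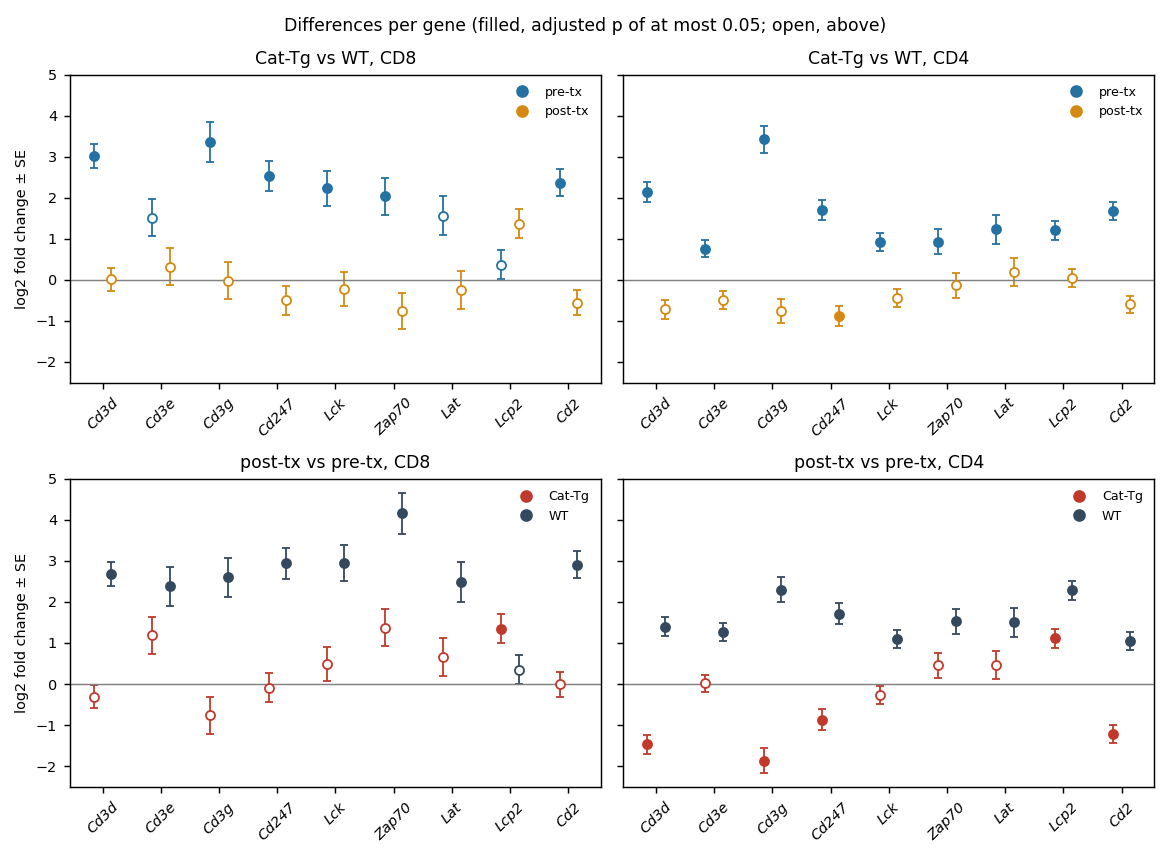
Log2 fold changes with SE of the 9 genes in the Cat-Tg to WT comparisons (upper panels) and the post-tx to pre-tx comparisons (lower panels); filled points passed an adjusted p of 0.05. In the upper panels the pre-tx points of all genes but Lcp2 in CD8 lie above the post-tx points. The lower panels hold the same change of the difference in another order, so WT must lie above Cat-Tg there with the same exception.

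CD8+ and CD4+ cells of 1 genotype and time were compared in a fit of all 24 libraries with their own scaling. Both subsets come from the same mice, and the fit does not take this into account, because the labels do not pair the libraries. In Cat-Tg pre-tx no member differed between the subsets in the edgeR test (1.53% of genes called), and with DESeq2 and limma-voom none was called either. Unadjusted p-values under 0.05 were seen for 2 members, Lck (0.0328) and Cd3d (0.0456). On day 7, 4 members were higher in Cat-Tg CD8+ than in Cat-Tg CD4+ cells, where 6.00% of genes were called and 1.49% were higher. Cd3d stood at 1233, 1279.6 and 1257 CPM in CD8+ and 478, 458 and 574 CPM in CD4+ cells (2.5-fold, adjusted p = 0.000961), and Lck at 3451, 3686 and 3983 CPM against 1747, 1431 and 1730.1 CPM (2.27-fold, adjusted p = 0.0359). Cd247 (2.02-fold, adjusted p = 0.0478) and Cd2 (1.88-fold, adjusted p = 0.0309) were the others. Cd3d kept its call whichever library was left out, while Cd247 and Lck were lost without any 1 of the 6 libraries compared (adjusted p = 0.0557 to 0.15) and Cd2 without 4 of them, all but Cat-Tg CD8 post-tx replicate 1 and Cat-Tg CD4 post-tx replicate 3. Without the WT pre-tx libraries in the fit, or with the replicate number as a block, Cd3d alone was called (with the block, adjusted p = 0.0798 for Cd247, 0.119 for Lck and 0.111 for Cd2). The same CD8+ libraries held fewer transcripts of other cells, with 10 of 12 myeloid markers (median log2 fold change -4.43) and 5 of 14 B cell markers called lower and 1 B cell marker higher; their part in the result was not tested. Trbc1 (1.31) and Trbc2 (1.36) were also higher in the CD8+ cells, and Trac was not called (adjusted p = 0.147).

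In WT cells on day 7, 4 members were higher and 1 was lower in CD8+ than in CD4+ cells, where 13.1% of genes were called, 5.98% higher and 7.16% lower. Lcp2 was lower, at 103, 118 and 145 CPM in CD8+ against 357, 310.1 and 406 CPM in CD4+ cells (2.93-fold, adjusted p = 0.00061). Cd2 was higher, at 2009.5, 1157 and 1209.6 CPM against 766, 595 and 789.9 CPM (2.03-fold, adjusted p = 0.00801). Cd3d was 1.66-fold higher (adjusted p = 0.0444), and Lck (1546, 6411 and 4335 against 2303, 1554 and 1859.8 CPM, adjusted p = 0.0295) and Zap70 (464, 2384 and 1253 against 553, 330.0 and 518 CPM, adjusted p = 0.0102) were called although the groups overlapped. The number of members called moved between 1, without WT CD4 post-tx replicate 2, and 7, without WT CD8 post-tx replicate 1, with 3 called without WT CD8 post-tx replicate 2 or WT CD4 post-tx replicate 3. A fit of only these 6 libraries called 0 members. With the replicate number as a block Lcp2 alone was called (adjusted p = 0.154 for Cd3d, 0.207 for Lck, 0.121 for Zap70 and 0.051 for Cd2). Of the 12 myeloid markers 9 were called lower in the CD8+ libraries (median -3.16), and their part in the result was not tested. In the same cells 8 of 19 genes of the downstream list were lower in CD8+ cells, Nfatc1, Nfatc2, Nfatc3, Prkcq and Rasgrp1 among them, and none was higher. WT pre-tx cells were not compared between subsets because of the mixed coreceptor transcripts.

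Within the complex, the chains did not keep 1 proportion. Of the summed TPM of Cd3d, Cd3e, Cd3g and Cd247, Cd3e took 10.5, 9.41 and 9.57% in Cat-Tg CD8 pre-tx and 12.4, 7.94 and 10.7% in Cat-Tg CD4 pre-tx. In the same cells on day 7 the share of Cd3e was 25.4, 25.8 and 26.9% (CD8) and 31.9, 24 and 22.9% (CD4), without overlap. Cd3g moved the other way, from 43.9, 50.9 and 44.1% to 34.1, 32.6 and 26.6% in Cat-Tg CD8 and from 50, 57.8 and 49% to 23, 40.5 and 40.6% in Cat-Tg CD4. In the WT pre-tx libraries Cd3e already took 25.9, 22.2 and 27.6% (CD8) and 33.1, 25.1 and 29.4% (CD4), and in WT CD4 post-tx 23.1, 21.3 and 22.1%. The WT CD8 post-tx libraries held it at 5.22, 36.4 and 19.8%, a wider range than all other groups together. Cd3d (group means of 23.5 to 30.2%) and Cd247 (11.6 to 20.9%) varied less between groups. These shares are descriptions and were not tested.

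**Figure D3:**
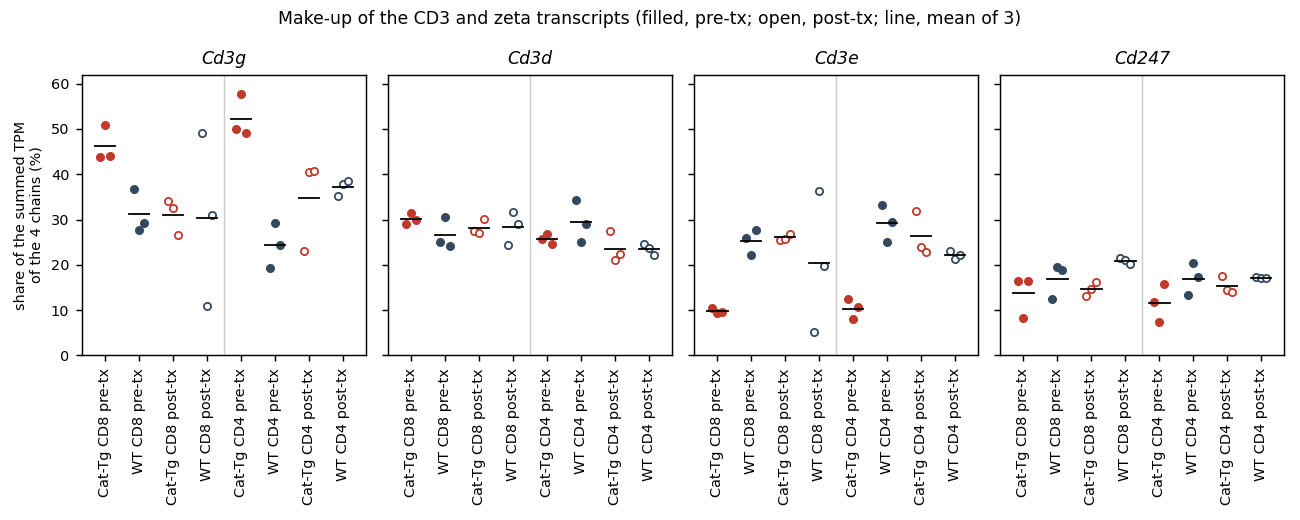
Share of Cd3g, Cd3d, Cd3e and Cd247 in their summed TPM (%) for each library, by group; filled points are pre-tx, open points post-tx and the line is the mean of 3. In the Cat-Tg pre-tx libraries Cd3e lies at 7.94 to 12.4% and Cd3g at 43.9 to 57.8%; of the other libraries, WT CD8 post-tx replicate 1 alone has Cd3e as low (5.22%) and Cd3g as high (49.1%).

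Most members were read from 1 main transcript. Cd3d-201, Cd3g-201 and Cd2-201 took at least 98% of the estimated counts of their genes in every group mean, Cd247-201 took 94.7 to 98.9%, Cd3e-201 89.7 to 96.4% and Zap70-201 87.8 to 95.5%. Zap70-204, annotated as a retained intron, took 4.38 to 12.2%, and Cd3e-202, of the same type, 2.05 to 7.57%. Lcp2 was divided between Lcp2-201 (52.6 to 78.1%) and Lcp2-202 (20.3 to 45.3%), and the share of Lcp2-202 differed between replicates, from 9.46 to 33.8% within WT CD8 post-tx. The TPM of Lcp2 depends on that assignment and on how the libraries are scaled. Mean TPM of Lcp2 was lower in Cat-Tg than in WT CD8 pre-tx (36 against 56.7), whereas its mean CPM was not (120.1 against 92.8). All other members also had a smaller Cat-Tg to WT ratio in TPM than in CPM in this comparison. Cd3d, for example, stood at 826 against 189.8 TPM beside 1419.8 against 176 CPM. The shift is thus not particular to Lcp2, and its source was not tested.

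Lck has 2 starts 15269 bases apart, and the promoters of both are printed above. The transcript Lck-202 begins at the distal start and took 85.2 to 93.5% of Lck counts in all 8 group means. The protein-coding transcripts Lck-201, Lck-206 and Lck-208 begin within 100 bases of the proximal start, which is the one used in the vector of the transgene. Together they took 5.62, 8.52 and 5.09% in Cat-Tg CD8 pre-tx, 14.1, 8.64 and 9.73% in WT CD8 pre-tx, 5.62, 6.34 and 6.21% in Cat-Tg CD8 post-tx and 6.13, 9.68 and 6.84% in WT CD8 post-tx. In CD4+ cells they took 10.1, 10.3 and 11.1% in Cat-Tg pre-tx, 12.2, 12.1 and 11% in WT pre-tx, 7.35, 13.6 and 16% in Cat-Tg post-tx and 13.8, 12.8 and 13.2% in WT post-tx. Distal transcripts thus made up most of Lck everywhere. Before transplant the mean proximal share was lower in Cat-Tg than in WT. It was 6.41 against 10.8% in CD8+ cells, where the closest libraries were at 8.52 and 8.64%, and 10.5 against 11.8% in CD4+ cells, where the groups overlapped. Outside WT pre-tx, group means were 6.06 to 7.55% in CD8+ cells and 10.5 to 13.3% in CD4+ cells. The WT pre-tx libraries held transcripts of both coreceptors, so genotype and cell make-up cannot be told apart in these shares. These shares were not tested.

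**Figure D4:**
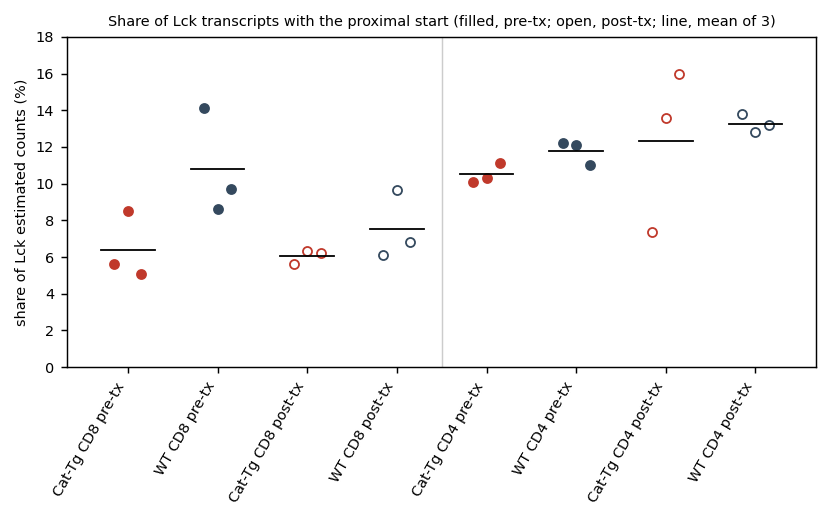
Share of the transcripts with the proximal start in the estimated counts of Lck (%) for each library, by group; filled points are pre-tx, open points post-tx and the line is the mean of 3. The share runs from 5.09 to 16%, and the Cat-Tg and WT pre-tx points nearly touch in CD8 and overlap in CD4.

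The spread between replicates followed the base composition of the genes in some groups. Across 8526 genes, the log2 deviation of a library from its group mean was regressed on GC content. The slope per 10% GC was -1.3, 1.24 and 0.0571 in the WT CD8 post-tx libraries and 0.718, -0.416 and -0.302 in Cat-Tg CD4 post-tx, and it lay between -0.276 and 0.413 in the other 18 libraries. Among the members, Zap70 (59.3% GC), Lat (58.4%) and Lck (54.9%) are the richest in GC and Cd3g (47.1%) and Lcp2 (49.3%) the poorest. In WT CD8 post-tx the first 3 were lowest in replicate 1 and highest in replicate 2, and Cd3g was highest in replicate 1 and lowest in replicate 2, which is the order of the slopes. Lcp2 did not follow it, at 98.7, 114 and 142 CPM in replicates 1, 2 and 3. Cd3e (50.5%) was also lowest in replicate 1 and highest in replicate 2, although its GC content is close to that of Cd3d, which differed little. Cd2 (50.9%), at 1917, 1116 and 1187 CPM, and Cd247 (52.5%), at 1011, 870.0 and 730.1 CPM, were instead highest in replicate 1.

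**Figure D5:**
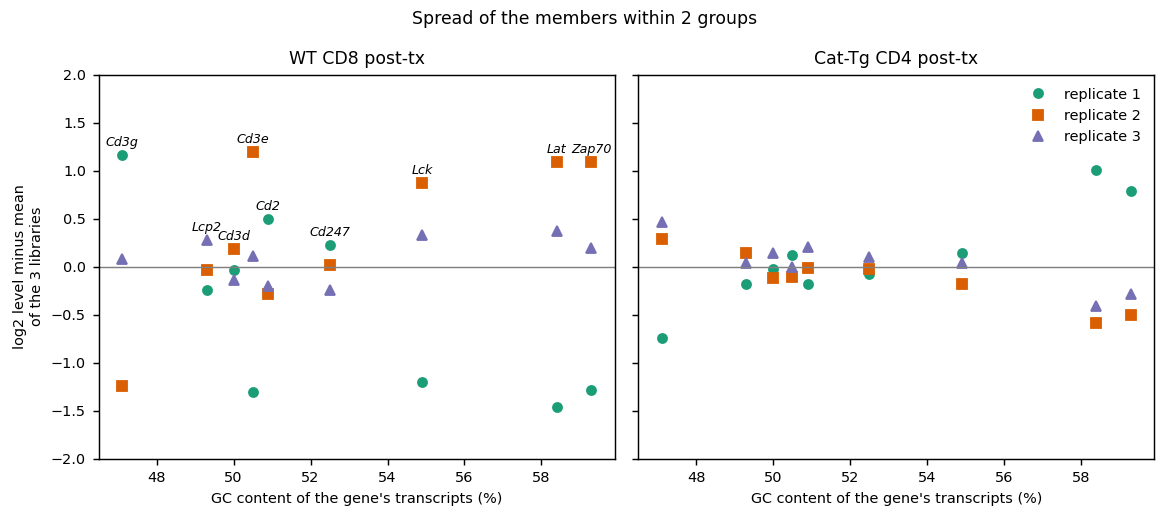
Log2 level of each gene minus the mean of its 3 libraries (vertical axis) against the GC content of its transcripts (%), in the 2 groups with the steepest slopes; symbols mark the replicates. In WT CD8 post-tx, Lck, Lat and Zap70 are low in replicate 1 and high in replicate 2 while Cd3g is the reverse; in Cat-Tg CD4 post-tx, Lat and Zap70 are high in replicate 1 alone.

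Across all 24 libraries, 8 of the 9 members moved with the mean of the other 8 (Pearson r of log2 CPM from 0.69 for Cd3g to 0.92 for Lck), and Lcp2 did so least (0.46). Over the 18 libraries other than WT pre-tx, r was 0.9 for Lck, 0.7 for Cd3e, 0.62 for Zap70, 0.59 for Cd247, 0.45 for Cd3d, 0.38 for Lat and Cd2, -0.33 for Cd3g and -0.35 for Lcp2. Among 8517 protein-coding genes outside the list, the mean of the members was most like Fxyd5 (r = 0.965), Gzmk (0.941), Dynlrb1 (0.934), Slc25a20 (0.922) and Skap1 (0.91) over 24 libraries. Over the 18 libraries the most like were Fxyd5 (0.936), Vps28 (0.908), Smim20 (0.894), Eif4a3 (0.887) and Cd27 (0.885), so that 1 of the 5 genes was shared, and Gzmk came at rank 604. These correlations describe libraries that share groups and depth and have no p.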

How the data were processed

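Per the labels and the study's methods, cells were sorted into Trizol, cDNA was made with SMART-Seq HT and libraries with Nextera XT, and reads were pseudo-aligned with kallisto 0.46.2; the release of the transcript index is not given in the sources used here, and the submitters' processing notes also name mm9. The authors deposited estimated counts and TPM per transcript for each library, with no filter and no pooling. From these, estimated counts of the 116374 of 117497 transcripts that matched GENCODE M21 by identifier without version (99.57 to 99.75% of counts per library) were summed to 35817 gene symbols and rounded to whole numbers. The deposited TPM values were summed per gene to compare levels between genes.

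Members and lists were chosen with earlier results of these data known. Genes with CPM over 1 in at least 3 libraries were fitted with edgeR 4.0.16 (TMM, robust quasi-likelihood F test, R 4.3.3) on the 12 libraries of each subset, or on all 24 for CD8 against CD4, with Benjamini-Hochberg adjustment over all genes tested; all 9 members passed the filter in each fit. Log2 fold changes carry the SE that the F statistic implies. The CD8 fit was run on simulated counts for the comparison of Cat-Tg with WT pre-tx only, and the other fits were not. The study's own test was limma-voom on each subset, and a count test was used here because the files hold estimated counts. Named genes were the members, in each comparison the 2 highest and 2 lowest called genes of the wider pathway list, Trac, Trbc1, Trbc2, Cd4, Cd8a and Cd8b1, and the 5 protein-coding genes of at least 10 mean CPM most like the mean of the members; others were named after their values were seen. The markers of T cells beside the members were Thy1, Cd5, Cd6, Bcl11b, Skap1, Trat1, Themis, Ubash3a and 1 gene that is not reported here, of which all but Thy1 and Bcl11b are also in the wider list. Alternatives were limma-voom 3.58.1, DESeq2 1.42.0 and its size factors, other filters and fold limits, length-scaled TPM, the T cell marker scale, gene length and GC corrections (mgcv 1.9.3; the GC correction was chosen after seeing the data), a replicate block, smaller fits and each library left out. No counting intervals were computed.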

Additional observations from a re-analysis of the deposited data

Results flagged for a closer look

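The difference between Cat-Tg and WT itself differed between pre-tx and post-tx for 13 results, by the interaction term of the edgeR fit. In CD8+ cells the change on the log2 scale was -3.37 for Cd3g, -3.03 for Cd247, -3.0 for Cd3d, -2.92 for Cd2, -2.8 for Zap70 and -2.45 for Lck. In CD4+ cells it was -4.17 for Cd3g, -2.86 for Cd3d, -2.58 for Cd247, -2.27 for Cd2, -1.36 for Lck, -1.25 for Cd3e and -1.17 for Lcp2. All of these include the WT pre-tx libraries, in which B cell markers summed to 9971 to 16519 CPM. On the scale of the 9 other T cell markers, 4 of the 6 CD8 values (Cd3d, Cd3g, Cd247 and Cd2) and 3 of the 7 CD4 values (Cd3d, Cd3g and Cd247) still passed. That scale cannot be taken to hold T cell content level. Groups of 3 libraries were not screened for single libraries far from the others.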

How the results depend on the processing

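Counts of members called and the log2 fold change of each member were recomputed under each alternative and without each library in turn. The GC content correction, alone and with the block, was chosen after seeing the data. Where an uncalled value within 1 SE of 0 changed sign and stayed uncalled, it was not counted as reversed. On the scale of the 9 other T cell markers the median log2 fold change of all genes moved from -0.07 to -1.54 (CD8 pre-tx), 0.03 to -1.35 (CD4 pre-tx), -0.13 to -1.31 (WT CD4 between times) and -0.55 to 0.99 (the change of the difference in CD4). Members called went from 6 to 3 (CD8 pre-tx), 9 to 3 (CD4 pre-tx), 9 to 2 (WT CD4 between times), 7 to 3 (change of the difference, CD4), 1 to 0 (CD4 post-tx), 4 to 2 (Cat-Tg post-tx, CD8 against CD4) and 1 to 2 (Cat-Tg CD8 between times). It reversed Lcp2 in CD8 pre-tx (-1.13) and, in CD4 pre-tx, Cd3e (-0.61), Lck (-0.44), Zap70 (-0.44), Lat (-0.14) and Lcp2 (-0.17). For WT CD4 between times it reversed Lck (-0.09) and Cd2 (-0.13), and for the change of the difference in CD4 Cd3e (0.29), Lck (0.15), Zap70 (0.36), Lat (0.36) and Lcp2 (0.41). Lck in Cat-Tg CD4 between times was 0.06 on that scale, without the filter on low counts and without the WT pre-tx libraries.

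Correction for GC content with gene length reversed, without and with the replicate block, Lck (-0.27 and -0.26) and Lat (-0.17 and -0.16) in Cat-Tg CD8 between times, Zap70 (-0.79 in both) and Lat (-0.53 in both) in Cat-Tg CD4 between times, and Lat (-0.31 and -0.35) in WT post-tx, CD8 against CD4. Cat-Tg CD4 between times went from 5 members to 8 in both. The cause was not tested.

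Cat-Tg against WT in CD4 post-tx, with 1 member in edgeR, had 2 with limma-voom, 3 with gene length correction, 6 with GC content too, 4 with that and the block, and 0 with DESeq2, DESeq2 size factors, no filter, an added limit of 1 on the absolute log2 fold change, the block alone, only the groups compared, or no WT pre-tx libraries. Cat-Tg against WT in CD8 post-tx had 1 instead of 0 with DESeq2, a minimum of 10 counts or length-scaled TPM. Cat-Tg CD8 between times had 2 with limma-voom, DESeq2, no filter or length-scaled TPM and 5 with only the groups compared. For CD8 against CD4, Cat-Tg post-tx had 2 with no filter or length-scaled TPM and 1 with the block or without the WT pre-tx libraries, and WT post-tx had 3 with no filter, gene length correction, the block with GC content, or no WT pre-tx libraries, 1 with the block and 0 with only the groups compared. An added limit of 2 on the absolute log2 fold change left 0 in Cat-Tg CD8 between times, CD4 post-tx, Cat-Tg CD4 between times and both CD8 against CD4 tests, 2 in CD4 pre-tx and WT CD4 between times, and 4 for the change in CD4.

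Leaving out 1 library gave 5 to 6 members in CD8 pre-tx, 0 to 1 in CD8 post-tx, 0 to 1 in Cat-Tg CD8 between times, 8 to 8 in WT CD8 between times, 5 to 8 for the change in CD8, 5 to 7 in CD4 pre-tx, 0 to 0 in CD4 post-tx, 4 to 5 in Cat-Tg CD4 between times, 8 to 9 in WT CD4 between times, 4 to 9 for the change in CD4, and 0 to 0, 1 to 2 and 1 to 7 in the 3 CD8 against CD4 tests. It reversed Zap70 in CD8 post-tx (range -1.02 to 0.0) and Cd3e in WT post-tx, CD8 against CD4 (-0.24), both without WT CD8 post-tx replicate 2, and Zap70 (range -0.05 to 0.7) and Lat (range -0.23 to 0.74) in Cat-Tg CD4 between times without Cat-Tg CD4 post-tx replicate 1.

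Same-numbered libraries did not deviate together: in no comparison did every pair correlate above 0.1 (mean r -0.113 to 0.129), and in 2 comparisons every library correlated best with its own number, which is a hint from the data and not from the design. With the replicate block, Lck was lost from the change in CD8 (adjusted p = 0.0538) and Cd247 from CD4 post-tx (0.0602), and Zap70 (0.0276) and Lat (0.0285) were gained in the change in CD4; beside the counts above it changed no other call.

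Counting only protein-coding transcripts moved 12 group shares: Cd3d to 11.9% (WT CD8 pre-tx) and 12.5% (Cat-Tg CD8 post-tx), Cd3e to 5.08% (Cat-Tg CD8 pre-tx), 10.7% (Cat-Tg CD8 post-tx) and 9.67% (WT CD4 post-tx), Cd247 to 8.06% (WT CD4 post-tx), Lck to 24.2% (WT CD8 pre-tx), Zap70 to 2.28% (Cat-Tg CD8 pre-tx), 5.33% (Cat-Tg CD8 post-tx), 4.1% (WT CD4 pre-tx) and 4.4% (WT CD4 post-tx), and Lcp2 to 2.73% (WT CD4 post-tx). Of the 5 genes most like the members, 1 was shared without the WT pre-tx libraries. Depth limited no member: the lowest value, 62.8 CPM for Lcp2, lay far above the floor of 0.269 CPM.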
